A study of Mus musculus with 18 samples.

Results

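The left ventricles of WT mice and of sham-operated MHC-cycD2 mice were compared here by the state of their circadian clock, as read from 2 clock genes, Arntl and Dbp. For each library the log2 CPM (counts-per-million, with a prior count of 1) of Dbp was subtracted from that of Arntl. The libraries were chosen by this measured difference, which was above 0 in 5 libraries (3 WT and 2 sham) and below 0 in the other 5 (2 WT and 3 sham), out of 18 libraries in the series. The libraries are called below those with Arntl above Dbp and those with Dbp above Arntl. The labels give no hour of collection and no light schedule, so the division rests on RNA alone, and a higher or lower level always refers to the libraries with Arntl above Dbp set against those with Dbp above Arntl.

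All 18 libraries came from RNA of left ventricular myocardium of mice on a (DBA/2J x C3HeB/FeJ)F1 background. The WT mice were wild type and had no treatment (n = 5). The sham mice carried the MHC-cycD2 transgene, in which a cardiac myosin heavy chain promoter drives cyclin D2 in heart muscle cells, and had a sham operation at 8 weeks of age (n = 5). The labels describe 2 kinds of sham operation and do not say which these mice had, so genotype and operation cannot be told apart between WT and sham. The other 8 libraries are labelled as MHC-cycD2 mice of the same background, 3 with a constriction of the transverse aorta (TAC, a pressure load) and 5 with an aortocaval Shunt (a volume load), and they serve only as a description at the end. Each library is labelled as a separate sample. Nothing says that each came from a separate animal, so a p-value here weighs a difference against the spread between samples alone, and that spread may be partly technical.

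In the circadian clock of mammalian cells, ARNTL (also called BMAL1) pairs with CLOCK or NPAS2 and binds E-box sequences, where it turns on the genes of its own repressors, the PER and CRY proteins, and of the nuclear receptors NR1D1 and NR1D2. The NR1D receptors repress Arntl and Npas2 at ROR elements, on which the ROR receptors activate. A further layer is formed by the PAR bZIP factors DBP, TEF and HLF, which activate at D-box sequences, and NFIL3, which represses there. Arntl RNA and the RNA of the E-box targets therefore peak at nearly opposite times of day. In the heart this loop runs within the muscle cells themselves and is known to set daily rhythms of fuel use, of ion channels and of protein turnover.

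The promoter windows below are shown because they hold the motifs of these loops in clock genes described here, among them Arntl, which was used to divide the libraries. They are RefSeq windows of build GRCm38.p6 from 250 bases before to 50 after an annotated start, written 5′ to 3′ along the gene, with the motif in capitals. Ciart (chr3:95882179-95882478, minus strand) held 3 E-boxes, Tef (chr15:81802423-81802722, plus strand) and Bhlhe41 (chr6:145865371-145865670, minus strand) 1 each. Per3 (chr4:151044616-151044915, minus strand) held 2 D-box cores, and Nfil3 (chr13:52980990-52981289, minus strand) and Arntl (chr7:113207261-113207560, plus strand) 1 ROR element core each, the former read on the other strand.
Ciart: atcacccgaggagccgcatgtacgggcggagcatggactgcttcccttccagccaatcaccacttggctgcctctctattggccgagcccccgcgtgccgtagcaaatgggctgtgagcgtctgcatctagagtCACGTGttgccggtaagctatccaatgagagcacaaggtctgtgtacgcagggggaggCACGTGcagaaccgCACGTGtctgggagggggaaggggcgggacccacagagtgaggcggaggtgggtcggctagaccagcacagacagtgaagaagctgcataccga
Tef: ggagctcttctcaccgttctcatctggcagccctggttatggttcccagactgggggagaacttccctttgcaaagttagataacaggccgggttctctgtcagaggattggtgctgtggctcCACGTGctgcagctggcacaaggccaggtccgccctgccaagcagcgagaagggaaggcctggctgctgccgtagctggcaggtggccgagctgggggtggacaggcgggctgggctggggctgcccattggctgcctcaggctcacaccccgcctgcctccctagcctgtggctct
Bhlhe41: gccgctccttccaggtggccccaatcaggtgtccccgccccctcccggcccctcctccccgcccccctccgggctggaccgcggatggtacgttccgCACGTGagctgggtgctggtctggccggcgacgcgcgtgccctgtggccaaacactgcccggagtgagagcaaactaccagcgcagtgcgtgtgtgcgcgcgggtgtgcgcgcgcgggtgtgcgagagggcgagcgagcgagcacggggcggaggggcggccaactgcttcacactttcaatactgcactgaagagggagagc
Per3: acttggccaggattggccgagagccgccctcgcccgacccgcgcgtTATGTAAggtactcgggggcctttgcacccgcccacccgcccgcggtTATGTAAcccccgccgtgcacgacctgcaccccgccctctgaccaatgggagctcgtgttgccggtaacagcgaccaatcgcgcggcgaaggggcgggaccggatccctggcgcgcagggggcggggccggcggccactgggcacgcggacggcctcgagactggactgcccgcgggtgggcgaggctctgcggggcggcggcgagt
Nfil3: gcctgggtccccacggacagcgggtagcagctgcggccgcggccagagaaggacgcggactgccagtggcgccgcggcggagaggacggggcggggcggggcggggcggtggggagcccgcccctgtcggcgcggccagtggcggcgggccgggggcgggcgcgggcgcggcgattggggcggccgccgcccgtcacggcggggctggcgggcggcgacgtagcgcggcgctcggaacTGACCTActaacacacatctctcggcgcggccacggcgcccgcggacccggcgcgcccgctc
Arntl: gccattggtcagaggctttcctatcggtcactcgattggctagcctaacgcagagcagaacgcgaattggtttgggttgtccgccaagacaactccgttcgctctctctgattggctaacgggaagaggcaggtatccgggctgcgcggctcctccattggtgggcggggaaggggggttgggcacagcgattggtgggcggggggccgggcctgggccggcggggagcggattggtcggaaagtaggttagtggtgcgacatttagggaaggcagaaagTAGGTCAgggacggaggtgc

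The 3 E-boxes of Ciart began 116, 58 and 44 bases before the start, that of Tef 127 and that of Bhlhe41 153 bases before it. Each motif was searched on both strands: the E-box as CACGTG, the D-box core as TATGTAA or TACGTAA and the ROR element core as TAGGTCA. None of these letters overlap one another within the windows shown. Arntl and Dbp left out, an E-box stood in a window of 5 of the 16 clock genes with a window (31.2%) and in 4 of the 8 genes with a window among the 10 largest falls described below. Ciart, Per1 and Tef are counted in both sets. Among the 10 largest rises an E-box stood in 2 of the 8 genes with a window (25.0%). Over all genes tested, 11.6% of the 10573 with a window held one, and the share was 16.5% among genes called lower and 9.1% among genes called higher. The D-box core was in 2.2% and the ROR element core in 2.3% of all genes with a window. Among the 16 clock genes with a window, each stood in 1 (6.2%), Per3 and Nfil3. No window of Npas2, Clock, Cry2, Nr1d1, Nr1d2, Hlf or Dbp held any of these motifs. A match is a run of letters and says nothing by itself of binding, and a window without a match says only that these letters are not in it.

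The values used for the division were as follows. In WT replicates 1 to 5, Arntl was at 42.5, 40.2, 35.1, 3.15 and 1.91 CPM and Dbp at 10.9, 10.2, 9.79, 174 and 164 CPM. In sham replicates 1 to 5, Arntl was at 39, 42.9, 1.39, 0.83 and 0.976 CPM and Dbp at 9.9, 8.42, 229, 247 and 188 CPM. The log2 difference lay between 1.84 and 2.34 in the 5 libraries above 0, with WT replicate 3 closest to the limit. It lay between -8.15 and -5.77 in the 5 below 0, with WT replicate 4 closest. No library lay between 1.84 and -5.77. The kinds follow the replicate numbers, with replicates 1 and 2 of each group on the side of Arntl, replicates 4 and 5 on the side of Dbp and replicate 3 split between them, so only replicate 3 separates whatever the numbers stand for from the kind of library.

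The libraries held 19297821 to 26521057 gene counts. Ccnd2, the gene the transgene adds to, was at 140 to 188 CPM in WT and at 21200 to 30700 CPM in sham, which matches the labels. Within sham it was at 30700 and 28500 CPM in the libraries with Arntl above Dbp and at 21300, 26400 and 21200 CPM in the others, a difference that did not pass the test (log2 fold change 0.37, adjusted p = 0.0957). Markers of ventricular muscle such as Myh6, at 22500 to 41500 CPM, were abundant throughout. The first principal component of the 10 libraries, with 47.1% of the variance, separated WT from sham, and the second, with 18.5%, separated the 2 kinds of library.

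The ventricle differed between the 2 kinds of library in far more than its clock. With WT or sham as a covariate, 2268 of 14006 genes were called at an adjusted p under 0.05 (edgeR quasi-likelihood test, Benjamini-Hochberg over all genes tested), which is 16.2%. Of these, 1049 were higher with Arntl above Dbp (7.49%) and 1219 lower (8.70%). Most differences were small: 71 genes were at least 2-fold higher (0.507%) and 70 at least 2-fold lower (0.500%). Arntl and Dbp are left out of these and all later counts. Because the libraries were divided by 2 genes that the clock loop ties to the others, the p-values of the other clock genes describe how far their levels stood apart against the spread between libraries, and are not independent evidence that a clock was in 2 states. Without sham replicate 1 the genes called lower were 798, and with all 18 libraries in the fit 589 genes were higher and 683 lower. In the fit of all 18 libraries, TAC and Shunt each hold a single kind of library. They therefore add nothing to the fold change between the kinds and enter through the estimate of spread alone. With the replicate number as a block, where the kind rests on replicate 3, 15 were higher and 17 lower, and 5 of the 10 clock repressors were among them. That fit called 0 of the 6 clock activators and 0 of the 3 D-box factors counted (3 and 2 at an unadjusted p under 0.05).

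The 2 groups share no library, so the difference within WT (3 libraries against 2) and within sham (2 against 3) can be set side by side. Within WT 1043 genes were called (7.45%), 466 higher (3.33%) and 577 lower (4.12%). Within sham 1228 were called (8.77%), 525 higher (3.75%) and 703 lower (5.02%). Of these, 449 genes were called in both groups, which is 43% of the WT calls and 36.6% of the sham calls, and 448 of them had the same sign. The sign in sham matched for 93.7% of the genes called in WT, the sign in WT for 91.4% of the genes called in sham, and signs matched for 66.3% of all genes tested. In 2576 genes (18.4%) the libraries of the 2 kinds did not overlap in WT nor, in the same direction, in sham. The counts within a group moved by over 1.5 times when single libraries were left out, in WT without replicate 2, 3, 4 or 5 (as low as 86 higher and 159 lower, without replicate 4) and in sham without replicate 1 or 2 (211 higher and 224 lower without replicate 2).

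**Figure D1:**
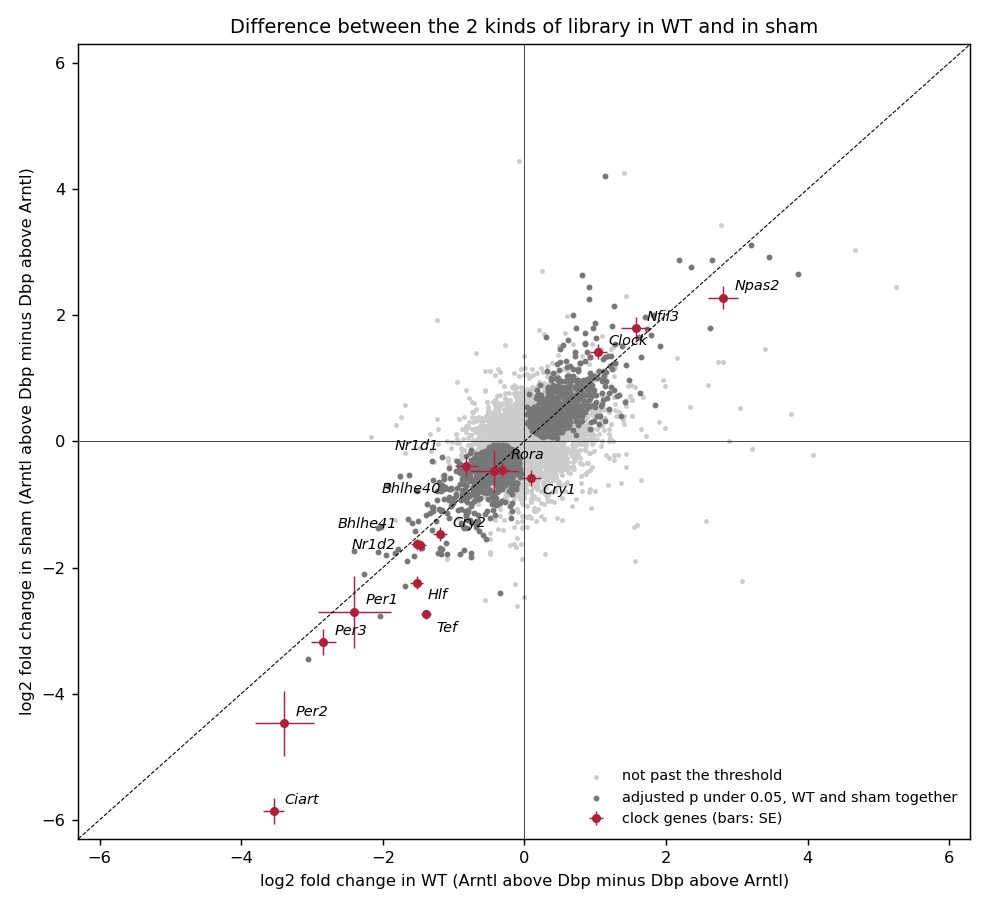
Log2 fold change between the 2 kinds of library (Arntl above Dbp minus Dbp above Arntl) in WT (x axis) and in sham (y axis) for 14006 genes, with Arntl and Dbp left out. Dark grey points were called with WT and sham together, red points are 16 of the other clock genes with bars of 1 SE, and the dashed line marks equal change; Ciart, Tef and Hlf lie below it, and Npas2 and Nfil3 lie at the upper right.

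Among the 19 other clock genes tested, 11 were lower (8.70% of all genes) and 4 higher (7.49%) with Arntl above Dbp. In 14 of them the kinds did not overlap, in the same direction in WT and in sham (18.4% of all genes). The partners of ARNTL stood on its side. Npas2, which can take the place of CLOCK beside ARNTL, was at 8.74, 8.77 and 8.04 CPM in WT replicates 1 to 3 and at 1.26 and 1.15 CPM in replicates 4 and 5. In sham it was at 8.05 and 10.8 CPM in replicates 1 and 2 and at 2.27, 1.52 and 2 CPM in replicates 3 to 5. Every library with Arntl above Dbp thus lay above every other, and the log2 fold change was 2.51 ± 0.15 (SE, adjusted p = 3.40e-07), or 5.7-fold. Clock, the usual partner, was at 82.9, 92.7 and 92.7 against 42.2 and 44.7 CPM in WT and at 92.6 and 95.5 against 41.5, 28.9 and 34.9 CPM in sham. These ranges did not overlap either, and the log2 fold change was 1.23 ± 0.10 (SE, adjusted p = 1.32e-05).

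The other activators described here differed little. Rora, which codes for a ROR receptor, was lower with Arntl above Dbp, at 34.6 to 39.7 CPM with Arntl above Dbp and 41.6 to 55.7 CPM with Dbp above Arntl over both groups (log2 fold change -0.39 ± 0.08, SE, adjusted p = 0.0045). Arntl2, a further gene for an ARNTL protein, was at 0.526 to 1.03 CPM with Arntl above Dbp and 0.371 to 0.888 CPM otherwise, and Rorb at 1.28 to 2.1 and 0.944 to 2.93 CPM. Neither passed (adjusted p = 0.9775 and 0.8430), and the sign of both depended on the model.

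The repressors stood opposite to Arntl. Of the 10 in the list 8 were lower with Arntl above Dbp (8.70% of all genes) and none was higher (7.49%). The median log2 fold change was -1.56 against -0.004 over all genes. Ciart, whose protein represses CLOCK and ARNTL, was at 1.69, 2 and 2.39 CPM against 25.3 and 22 CPM in WT. In sham it was at 0.308 and 0.376 CPM against 18.8, 22.5 and 19.7 CPM. Ciart thus took 2 well separated levels in each group, and its fall, the largest named by the rule for the text, was 19.2-fold (log2 fold change -4.26 ± 0.34, SE, adjusted p = 1.09e-04).

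The 3 Per genes, whose proteins carry the repressor complex, followed. Per2 was at 1.09, 3.03 and 4.87 against 30.6 and 32.5 CPM in WT and at 1.19 and 1.69 against 28.1, 30.6 and 38.4 CPM in sham (log2 fold change -3.85 ± 0.36, SE, adjusted p = 3.52e-04). Per3 was at 5.26, 4.87 and 8.57 against 44.2 and 45.3 CPM in WT and at 6.07 and 5.08 against 52.4, 46.6 and 52.3 CPM in sham (log2 fold change -3.00 ± 0.14, SE, adjusted p = 3.66e-07). Per1, which also answers to glucocorticoids and other acute signals, was at 7.25, 28.4 and 28.7 against 124 and 103 CPM in WT and at 16.7 and 22.9 against 110, 121 and 156 CPM in sham. None of the 3 overlapped between the kinds in either group. WT replicate 1 was the lowest library for Per1 and for Per2, and the log2 fold change of Per1 was -2.55 ± 0.36 (SE, adjusted p = 0.0037).

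The 2 Cry genes parted. Cry2 was at 23.3 to 31.1 CPM with Arntl above Dbp and 61.5 to 75.4 CPM with Dbp above Arntl (log2 fold change -1.33 ± 0.08, SE, adjusted p = 4.18e-07). Cry1, whose RNA is known to peak later than that of the Per genes, was at 16.3, 18.8 and 18.5 against 16.6 and 16.8 CPM in WT, where the kinds overlapped. In sham Cry1 was at 14.8 and 13.8 against 17.5, 22.8 and 23.9 CPM, without overlap. With both groups together it did not pass (log2 fold change -0.25 ± 0.13, SE, adjusted p = 0.2466). Within sham alone it did (-0.58, adjusted p = 0.0116), and the difference between sham and WT did not pass (-0.68, adjusted p = 0.1837).

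The NR1D receptors differed in size. Nr1d2 was at 56.5, 55.2 and 64.8 against 166 and 159 CPM in WT and at 77.1 and 70.5 against 243, 215 and 237 CPM in sham (log2 fold change -1.56 ± 0.06, SE, adjusted p = 7.84e-09). Nr1d1 was at 87.5, 69 and 83.6 against 151 and 130 CPM in WT and at 124 and 114 against 193, 143 and 133 CPM in sham. Its kinds did not overlap in either group, and its log2 fold change was smaller, at -0.60 ± 0.13 (SE, adjusted p = 0.0110). The call of Nr1d1 ended with all 18 libraries in the fit (adjusted p = 0.0558).

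Bhlhe41 and Bhlhe40 code for DEC2 and DEC1, which compete for E-boxes. Bhlhe41 was at 34.1, 31.3 and 33.8 against 92.8 and 96.2 CPM in WT and at 30.9 and 28.2 against 101, 86.1 and 86.2 CPM in sham. The libraries of the same kind lay close together in both groups, and the log2 fold change was -1.57 ± 0.06 (SE, adjusted p = 7.84e-09). Bhlhe40 was at 40.5, 81.5 and 91.4 against 104 and 87 CPM in WT and at 72.3 and 74.3 against 124, 89.6 and 90.7 CPM in sham. The kinds overlapped in WT, and it did not pass (log2 fold change -0.45 ± 0.22, SE, adjusted p = 0.2172).

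The D-box factors split by sign. Tef, a PAR bZIP activator, was at 116, 113 and 124 against 300 and 319 CPM in WT and at 63.1 and 56.9 against 393, 399 and 408 CPM in sham (log2 fold change -2.06 ± 0.26, SE, adjusted p = 0.0021). Hlf, another, was at 18, 20.5 and 23.1 against 58.5 and 59.4 CPM in WT and at 22.4 and 22.3 against 106, 101 and 108 CPM in sham (log2 fold change -1.88 ± 0.13, SE, adjusted p = 8.83e-06). Nfil3, which represses at the same sequence, was higher: 23.5, 33.7 and 26.1 against 8.72 and 9.99 CPM in WT and 51.5 and 41.7 against 10.5, 15.4 and 14.4 CPM in sham. In none of these 3 did the kinds overlap, and the log2 fold change of Nfil3 was 1.69 ± 0.13 (SE, adjusted p = 1.45e-05).

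**Figure D2:**
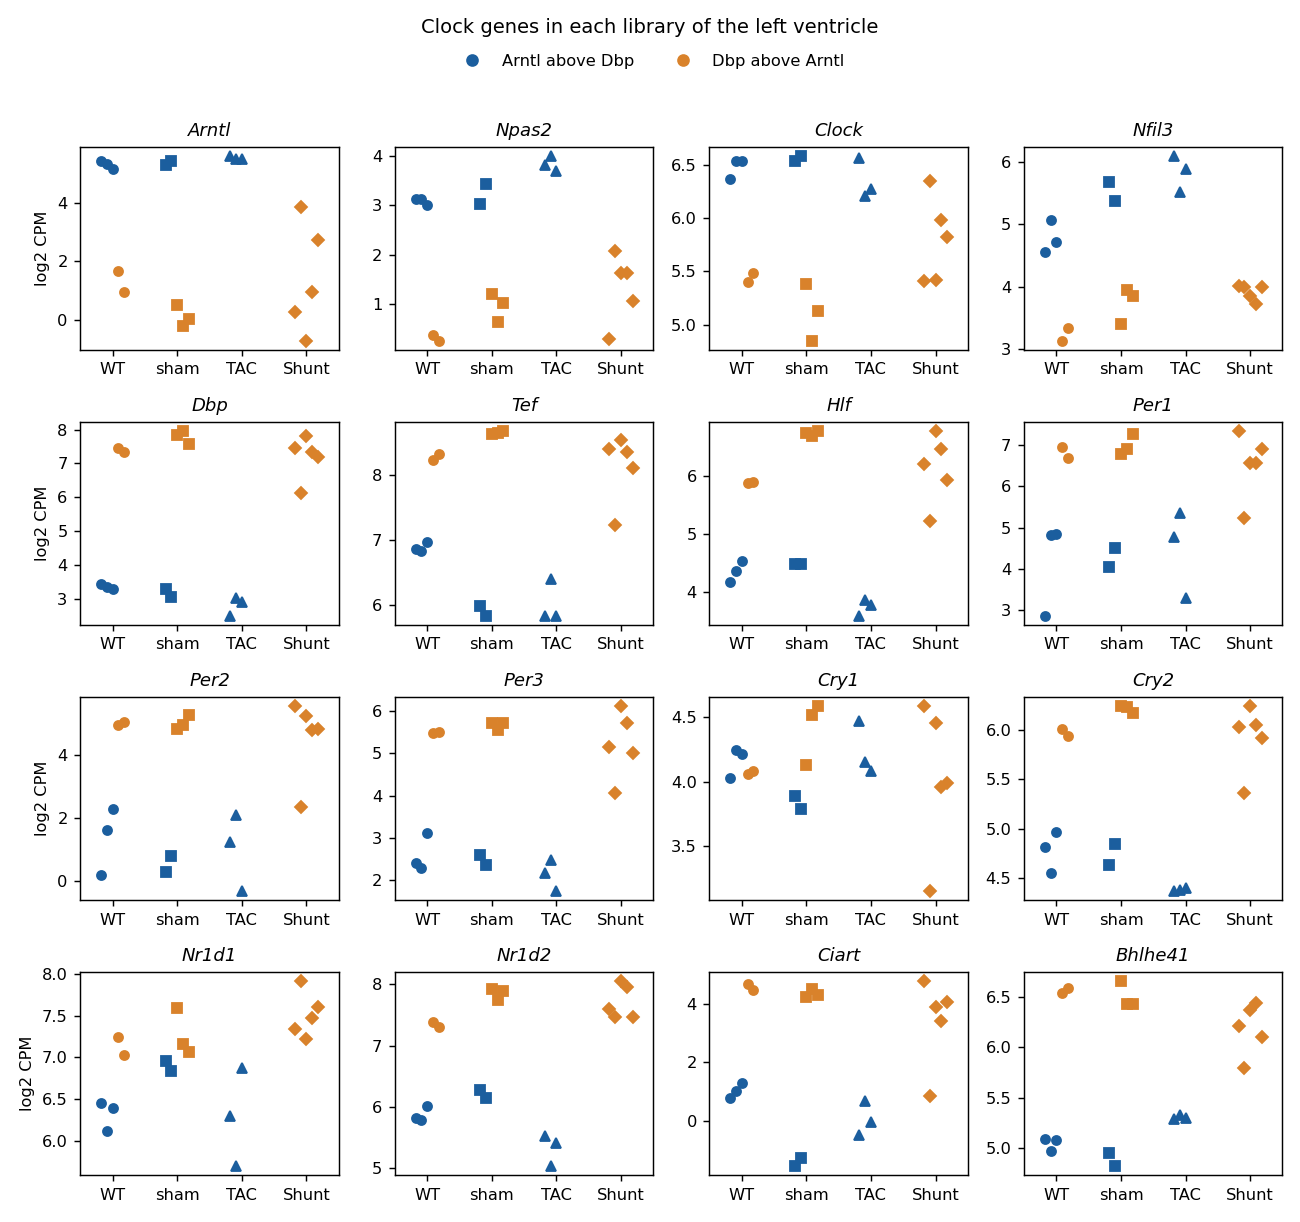
Log2 CPM of 16 clock genes in each of the 18 libraries, by group (x axis) and in order of replicate number, with each panel on its own scale. Blue libraries have Arntl above Dbp and orange ones Dbp above Arntl, a division made from the Arntl and Dbp panels; in WT and sham the colours do not overlap in any panel except Cry1 in WT, where they lie between 16.3 and 18.8 CPM.

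Enzymes that mark and remove clock proteins that were called mostly stood with the repressors. Of 14 such genes tested, 5 were lower (8.70% of all genes), 1 was higher (7.49%) and 8 did not pass. Usp2, a deubiquitinase of clock proteins, was at 69.4, 82.6 and 98.3 against 225 and 227 CPM in WT and at 92.7 and 87.8 against 290, 306 and 280 CPM in sham (log2 fold change -1.57 ± 0.09, SE, adjusted p = 3.66e-07). The casein kinases Csnk1e and Csnk1d, which phosphorylate PER proteins, were lower by much less, with log2 fold changes of -0.36 ± 0.06 and -0.23 ± 0.05 (SE, adjusted p = 0.0011 and 0.0057).

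Genes known for a daily rhythm in many tissues were mostly called. Of 17 in the list, 10 were lower and 4 higher, against 16.2% called over all genes, and the median log2 fold change was -0.65 against -0.004. Wee1, a kinase that holds cells out of mitosis, was at 9.18, 9.29 and 9.79 against 20.4 and 19.7 CPM in WT and at 11.6 and 10.8 against 37.8, 36.7 and 41.1 CPM in sham. Tspan4, which codes for a membrane tetraspanin, was at 24.7, 20.2 and 22.6 against 72.9 and 69.7 CPM in WT and at 16 and 17.7 against 60.4, 69.2 and 57.5 CPM in sham. Their log2 fold changes were -1.45 ± 0.12 and -1.77 ± 0.08 (SE, adjusted p = 8.31e-06 and 9.16e-09), with no overlap in either group. Dtx4, a ubiquitin ligase gene, was among the 4 that were higher, by 0.93 ± 0.08 (SE, adjusted p = 8.28e-06), at 15.3 to 19 against 8.21 to 9.48 CPM over both groups. The list was compiled with earlier results of these data known.

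**Figure D3:**
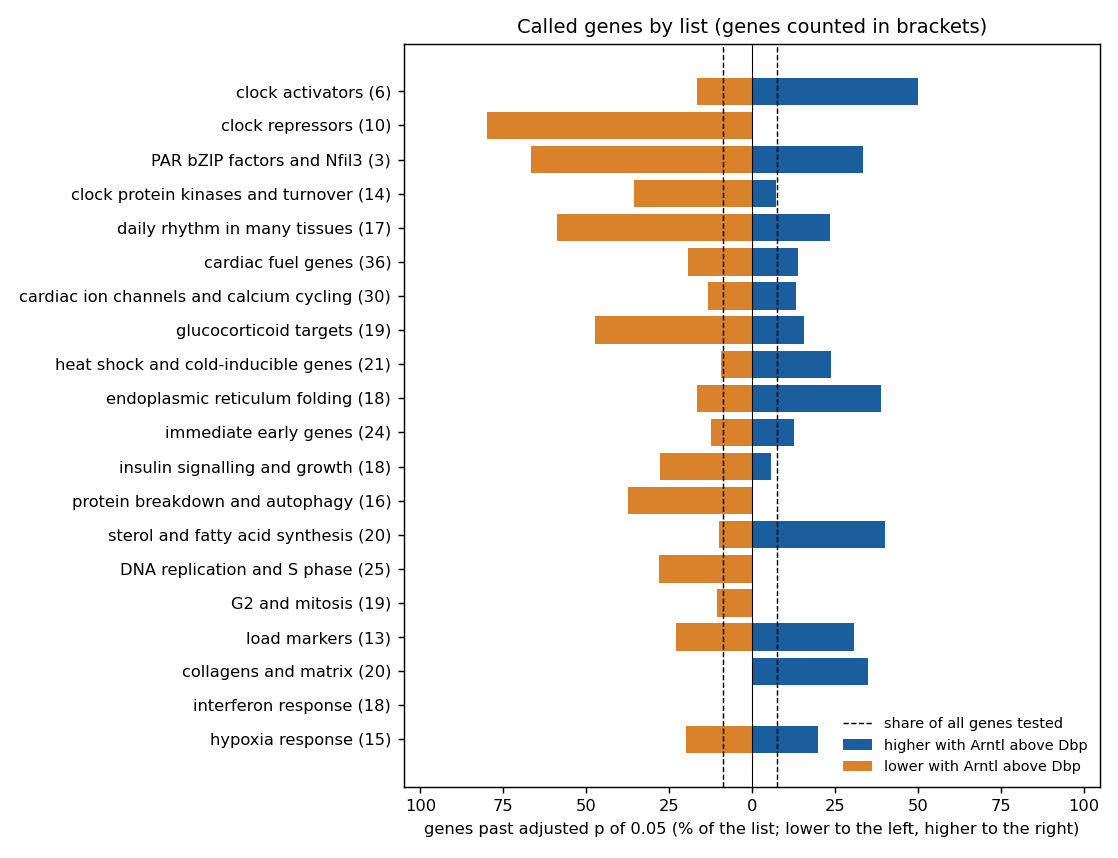
Share of each gene list called higher (blue, to the right) or lower (orange, to the left) with Arntl above Dbp, in percent of the genes counted, which stand in brackets. The dashed lines mark the shares over all genes, 7.49% higher and 8.70% lower; the bar of the clock repressors reaches 8 of 10 to the left, and the interferon list has no bar.

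From the protein-coding genes called with no overlap in either group and a mean log2 CPM of at least 1 (789 higher and 959 lower), the rule for naming took the 10 largest rises and the 10 largest falls. Beside Npas2 and Nfil3, the rises were Spon2, Adam19, Cdkn1a, Slc41a3, Col5a3, Tfrc, Colq and Cx3cr1. Spon2, a secreted matrix protein, was at 17.5, 16.9 and 20.2 against 2.29 and 1.02 CPM in WT and at 15.2 and 9.1 against 2.27, 1.66 and 0.843 CPM in sham. At 9.08-fold (log2 fold change 3.18 ± 0.28, SE, adjusted p = 7.30e-05) it rose more than any clock gene counted. Col5a3, a collagen chain, was at 51.5, 49.9 and 52.5 against 15.2 and 18.2 CPM in WT and at 47.8 and 50 against 18, 15.4 and 13.6 CPM in sham. Its levels within a kind lay close together in both groups, and its log2 fold change was 1.63 ± 0.07 (SE, adjusted p = 1.54e-08).

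Cdkn1a, which codes for the cell cycle inhibitor p21, was at 34.7, 50.5 and 49.6 against 12.5 and 11.5 CPM in WT and at 63.1 and 64.5 against 19.1, 21.7 and 26.4 CPM in sham (log2 fold change 1.69 ± 0.13, SE, adjusted p = 2.68e-05). Adam19, a membrane metalloprotease, was at 68.8 to 76.6 against 18.6 and 23.1 CPM in WT and at 53.3 and 65.7 against 11.2 to 18.6 CPM in sham (log2 fold change 1.91 ± 0.13, SE, adjusted p = 6.36e-06). Tfrc, the transferrin receptor, which brings iron into the cell, was at 266, 291 and 195 against 147 and 119 CPM in WT and at 558 and 417 against 111, 98.8 and 95.2 CPM in sham. All 3 genes separated the kinds in each group. The gap of Tfrc was narrow in WT, its log2 fold change was 1.59 ± 0.29 (SE, adjusted p = 0.0098), and the call ended without sham replicates 2 and 5 (adjusted p = 0.0571). Cx3cr1, a chemokine receptor of monocytes and macrophages, was at 3.03 to 7.25 against 1.48 and 1.51 CPM in WT and at 9.1 and 9.19 against 3.19 to 4.31 CPM in sham (log2 fold change 1.46 ± 0.21, SE, adjusted p = 8.38e-04).

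Beside the clock genes Ciart, Per1, Per2, Per3, Tef and Hlf, the falls were Zbtb16, Mthfd1l, Chac1 and Adh1. Zbtb16, a zinc finger repressor and glucocorticoid target, was at 18.9, 17.1 and 19.2 against 48.8 and 102 CPM in WT and at 18.3 and 21.1 against 139, 98.3 and 165 CPM in sham. Its libraries with Dbp above Arntl spread widely, and the log2 fold change was -2.40 ± 0.28 (SE, adjusted p = 0.0013). Adh1, an alcohol and retinol dehydrogenase, was at 12.9, 11 and 12 against 48.6 and 52.3 CPM in WT and at 8.18 and 6.81 against 19.5, 27.1 and 29.2 CPM in sham (log2 fold change -1.93 ± 0.11, SE, adjusted p = 6.32e-07). Mthfd1l, a mitochondrial enzyme of folate metabolism, was at 0.828 to 1.28 against 4.97 and 5.53 CPM in WT and at 1.14 and 1.54 against 4.82 to 7.14 CPM in sham (log2 fold change -2.19 ± 0.16, SE, adjusted p = 2.06e-06). Chac1, an enzyme that degrades glutathione, was at 1.44 to 2.44 against 8.48 and 11.3 CPM in WT and at 1.63 and 1.99 against 4.64 to 7.77 CPM in sham (log2 fold change -2.09 ± 0.20, SE, adjusted p = 3.01e-05).

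Tcap, the titin cap protein of the Z-disc, stands outside the rule and was chosen after its values were seen, because it is a structural gene of heart muscle at a high level. It was at 1020, 866 and 1040 CPM against 3570 and 3130 CPM in WT and at 1520 and 1190 CPM against 4170, 5260 and 3850 CPM in sham. Its log2 fold change was -1.74 ± 0.10 (SE, adjusted p = 5.71e-07), or 3.35-fold lower with Arntl above Dbp, without overlap in either group.

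**Figure D4:**
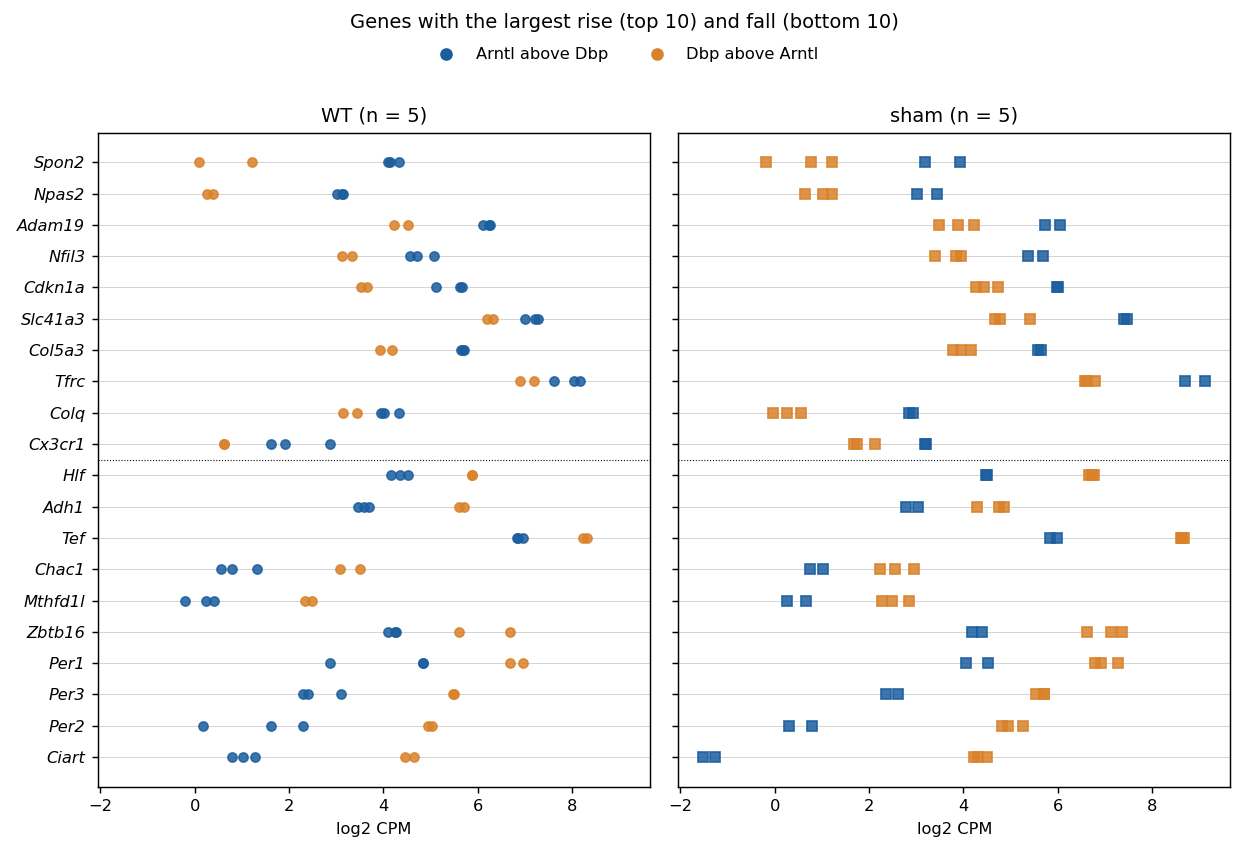
Log2 CPM (x axis) of the 10 genes with the largest rise (upper block) and the 10 with the largest fall (lower block) in each WT library (left) and sham library (right). Blue points have Arntl above Dbp and orange points Dbp above Arntl; the genes were chosen for having no overlap, so the separation of the colours is a description.

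Glucocorticoid targets, whose hormone itself follows a daily course, were lower more often than higher. Of 19 genes, 9 were lower (8.70% of all genes) and 3 higher (7.49%), with a median log2 fold change of -0.51. Klf9, a Krüppel-like factor, was at 65.7, 78.4 and 87.9 against 140 and 145 CPM in WT and at 70.5 and 78.8 against 144, 117 and 145 CPM in sham (log2 fold change -0.87 ± 0.08, SE, adjusted p = 2.87e-05). Mt1, a metallothionein, was at 93.4 to 96.6 against 157 and 169 CPM in WT and at 75.8 and 86.8 against 124 to 176 CPM in sham (log2 fold change -0.83 ± 0.08, SE, adjusted p = 3.64e-05), and with all 18 libraries in the fit it did not pass (adjusted p = 0.0783). The 9 include Per1, Zbtb16 and Klf9, and the 3 that were higher include Cdkn1a, so the list did not move in 1 direction. When any single library was left out, 1 or 2 of the 19 were called higher.

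Fuel genes moved in both directions: of 36, 5 were higher (7.49% of all genes) and 7 lower (8.70%), with a median log2 fold change of 0.02. Pnpla3, a lipase-like gene of lipid droplets, was at 2.04 to 2.46 against 0.494 and 0.4 CPM in WT and at 5.98 and 4.25 against 0.553 to 0.843 CPM in sham (log2 fold change 2.61 ± 0.19, SE, adjusted p = 1.84e-06). Pnpla2, which codes for the lipase ATGL that opens fat stores, was lower by -0.39 ± 0.07 on the log2 scale (SE, adjusted p = 0.0014). Slc2a1, the glucose transporter GLUT1, was at 21.9 to 26.3 against 30.9 and 34.8 CPM in WT and at 24.9 and 26.7 against 33.3 to 39.7 CPM in sham (log2 fold change -0.50 ± 0.07, SE, adjusted p = 4.04e-04). Pdk2, a kinase that shuts off pyruvate dehydrogenase, differed by -0.32 ± 0.05 (SE, adjusted p = 7.58e-04).

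Among 30 genes of ion channels and calcium cycling, 4 were higher and 4 lower, against 7.49% and 8.70% of all genes. With all 18 libraries in the fit edgeR called 0 of the 30 (6 at an unadjusted p under 0.05), while DESeq2 on the 10 libraries called 5 higher and 5 lower. Kcnh2, the channel gene of the rapid delayed rectifier current, was at 95.8, 94.5 and 105 against 145 and 130 CPM in WT and at 196 and 194 against 233, 247 and 215 CPM in sham (log2 fold change -0.36 ± 0.06, SE, adjusted p = 0.0017). Kcnip2, the subunit of the transient outward current that is known to follow the clock in mouse ventricle, was at 333 to 343 against 385 and 389 CPM in WT and at 189 and 210 against 224 to 274 CPM in sham (log2 fold change -0.27 ± 0.06, SE, adjusted p = 0.0087). Kcnk3, a background potassium channel, was higher by 0.24 ± 0.05 (SE, adjusted p = 0.0052).

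The called genes of protein breakdown and of insulin signalling and growth were mostly lower with Arntl above Dbp. Such a count does not give the direction of the signalling itself. Of 16 genes of protein breakdown and autophagy, 6 were lower (8.70% of all genes) and none higher (7.49%). The median log2 fold change of these 16 genes, -0.09, nevertheless lay near 0. Ulk1, the kinase that starts autophagy, was at 129, 129 and 141 against 168 and 182 CPM in WT and at 107 and 102 against 155, 136 and 149 CPM in sham (log2 fold change -0.44 ± 0.05, SE, adjusted p = 1.26e-04). Gabarapl1, a protein of the autophagosome membrane, differed by -0.48 ± 0.06 (SE, adjusted p = 1.28e-04). Of 18 genes of insulin signalling and growth, 5 were lower (8.70% of all genes) and 1 higher (7.49%), with a median log2 fold change of -0.13. Foxo3, the transcription factor that AKT keeps out of the nucleus, was at 89.6, 91.6 and 107 against 153 and 157 CPM in WT and at 94.4 and 94.3 against 168, 172 and 194 CPM in sham (log2 fold change -0.80 ± 0.07, SE, adjusted p = 5.64e-06).

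The called genes of endoplasmic reticulum folding and of lipid synthesis were mostly higher. Of 18 genes of endoplasmic reticulum folding, 7 were higher (7.49% of all genes) and 3 lower (8.70%). The 7 include the chaperones Hspa5 and Hsp90b1, with log2 fold changes of 0.29 ± 0.05 and 0.27 ± 0.05 (SE, adjusted p = 0.0022 and 0.0017). The 3 lower ones include Herpud1, which acts in the removal of misfolded proteins, at -1.34 ± 0.17 (SE, adjusted p = 0.0011), and Ddit3, a stress transcription factor, at -0.52 ± 0.10 (SE, adjusted p = 0.0027). Of 20 genes of sterol and fatty acid synthesis, 8 were higher (7.49% of all genes) and 2 lower (8.70%). Hmgcs1, an early enzyme of cholesterol synthesis, was at 0.40 ± 0.05 (SE, adjusted p = 9.65e-05). Srebf1, the regulator of fatty acid synthesis, was at 0.45 ± 0.10 (SE, adjusted p = 0.0073, and 0.0768 with all 18 libraries in the fit), and its kinds overlapped in WT. Fdft1, of the same list, was among the lower genes, at 24 to 31.4 CPM with Arntl above Dbp and 37 to 49.1 CPM otherwise over both groups.

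The genes of 2 cold-inducible RNA-binding proteins were lower. Cirbp, which follows body temperature over the day, was at 49.7, 32.4 and 40.2 against 92.8 and 84.2 CPM in WT and at 52.2 and 49.4 against 101, 81.7 and 69.2 CPM in sham. It was lower by -0.92 ± 0.14 on the log2 scale (SE, adjusted p = 0.0021), and Rbm3, its relative, by -0.46 ± 0.09 (SE, adjusted p = 0.0049). These were the 2 lower genes of the 21 in the list of heat shock and cold-inducible genes, against 8.70% of all genes. Another 5 were higher (7.49% of all genes) and 14 did not pass. Those called higher were 2 with atrial genes as a covariate or without sham replicates 2 and 5. The 5 of the main fit include the HSP90 cochaperone genes Stip1 (0.38 ± 0.06, SE, adjusted p = 7.72e-04) and Chordc1 (0.54 ± 0.11, SE, adjusted p = 0.0064).

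Of 20 collagens and matrix genes, 7 were higher (7.49% of all genes), none was lower (8.70%) and 13 did not pass, with a median log2 fold change of 0.39. With all 18 libraries in the fit, 3 of them were called. Eln, elastin, was at 29.9, 36.9 and 41.2 against 17.4 and 15.6 CPM in WT and at 25.2 and 30.6 against 10.8, 10.2 and 17.5 CPM in sham (log2 fold change 1.12 ± 0.15, SE, adjusted p = 8.63e-04). Col6a3, a chain of collagen VI, was at 77.5 to 87.7 against 48.5 and 57.7 CPM in WT and at 81.9 and 91.4 against 45.2 to 55.5 CPM in sham (log2 fold change 0.71 ± 0.07, SE, adjusted p = 3.02e-05). Summed over 9 fibroblast markers the level overlapped between the kinds in each group, at 3080 to 3520 against 3240 to 3680 CPM in WT and 2650 to 3610 against 2380 to 3770 CPM in sham, and edgeR, DESeq2 and limma-voom called 0 of the 9, with 1 at an unadjusted p under 0.05 in each. In a bulk library fewer cells of a type and less RNA per cell cannot be told apart.

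Of 13 load markers, 4 were higher (7.49% of all genes) and 3 lower (8.70%). Rcan1, a target and inhibitor of calcineurin, was at 243, 238 and 194 against 107 and 121 CPM in WT and at 126 and 131 against 63, 63.9 and 62.4 CPM in sham (log2 fold change 1.00 ± 0.06, SE, adjusted p = 4.67e-07). Ankrd23, a stretch-responsive protein of the sarcomere, was at 889 to 1060 against 492 and 687 CPM in WT and at 516 and 533 against 323 to 370 CPM in sham (log2 fold change 0.64 ± 0.09, SE, adjusted p = 5.00e-04). Myh6, the main myosin heavy chain of the mouse ventricle, was lower by -0.29 ± 0.07 on the log2 scale (SE, adjusted p = 0.0095, and 0.0771 with all 18 libraries in the fit). None of the mice in these libraries had an imposed load, per the labels.

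Of 25 genes of DNA replication and S phase, 7 were lower (8.70% of all genes) and none higher (7.49%). Of 19 genes of G2 and mitosis 2 were lower, near the 8.70% of all genes. Rrm2, which supplies deoxynucleotides, was at 2.83, 2.26 and 2.19 against 3.68 and 4.57 CPM in WT and at 7.13 and 5.04 against 10.6, 9.36 and 8.25 CPM in sham (log2 fold change -0.69 ± 0.13, SE, adjusted p = 0.0035). With single libraries left out, 1 to 6 of the 25 were called, the fewest without WT replicate 4, and with atrial genes as a covariate 2 were. With all 18 libraries in the fit edgeR called 0 of the 25 and 0 of the 19 (2 and 0 at an unadjusted p under 0.05), while DESeq2 on the 10 libraries called 5 and 3. Among 24 immediate early genes 3 were higher (7.49% of all genes) and 3 lower (8.70%), and among 15 hypoxia genes 3 and 3. Among 18 interferon genes edgeR, DESeq2 and limma-voom each called 0, with 3 at an unadjusted p under 0.05 in each.

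Hif3a, a hypoxia-inducible factor subunit, was the largest of the hypoxia differences, at 1.14, 1.44 and 1.61 against 4.04 and 5.9 CPM in WT and at 0.792 and 1.65 against 4.4, 3.27 and 5.06 CPM in sham (log2 fold change -1.80 ± 0.20, SE, adjusted p = 7.66e-05). Egln3, an oxygen-sensing prolyl hydroxylase, went the other way, at 248 to 342 against 130 and 140 CPM in WT and at 141 and 158 against 67.4 to 107 CPM in sham (log2 fold change 1.01 ± 0.15, SE, adjusted p = 0.0021).

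Several measures of the libraries moved with the kinds, within a group. The share of reads in no annotated gene (of reads in a gene, in none or ambiguous between genes) was 21.77% to 22.78% with Arntl above Dbp and 19% to 20.53% otherwise in WT, and 14.91% to 16.3% against 16.41% to 17.9% in sham, so the direction was opposite in the 2 groups. The summed level of red blood cell markers was 40.1 to 62.4 against 142 to 436 CPM in sham and overlapped in WT, that of lymphocyte markers was 5.94 to 7.29 against 2.88 to 4.06 CPM in sham, and that of mesothelial markers was 12.8 to 39.9 against 6.44 to 10.9 CPM in WT. The sum of neutrophil markers separated the kinds in both groups, at 2.09 to 4.57 against 1.11 to 1.62 CPM in WT and 1.85 to 1.92 against 1.06 to 1.29 CPM in sham, and 1 of its 6 markers was tested. In sham the sums of endothelial markers (1410 to 1490 against 1200 to 1360 CPM), of smooth muscle and pericyte markers (2190 to 2390 against 1790 to 2080 CPM) and of skeletal muscle markers (2370 to 2390 against 2400 to 2750 CPM) separated too. In WT those of ventricular muscle (87500 to 90100 against 93300 to 102000 CPM) and of nerve and glia (19 to 22.7 against 24 CPM in both libraries) did. Of all genes tested, 43.3% had no overlap between the kinds in WT, 39.4% in sham and 18.4% in both in the same direction. A separation within a group was thus common. Of the 6 red blood cell markers 4 were tested, of the 10 lymphocyte markers 3 and of the 7 mesothelial markers 4. With both groups together edgeR called 0 in each of the 3 lists (1, 2 and 1 at an unadjusted p under 0.05), while within sham it called 3 of the 4 red blood cell markers lower. DESeq2 called 1 red blood cell marker and limma-voom 1 lymphocyte marker. Of 10 endothelial markers Kdr was called higher and Flt1 lower, and of 9 macrophage markers Adgre1 was called higher. Csf3r, the 1 neutrophil marker tested, was called higher. Of 10 ventricular muscle markers Actc1 was called higher and Myh6 lower. Over all genes 7.49% were called higher and 8.70% lower. The calls of Csf3r, Flt1, Actc1 and Myh6 ended with all 18 libraries in the fit (adjusted p = 0.0628, 0.1510, 0.3861 and 0.0771). With the share of reads in no annotated gene as a covariate, 1065 genes were higher and 1276 lower for both groups together, but 38 and 87 within WT and 273 and 327 within sham. The sum of atrial muscle markers overlapped between the kinds in both groups. It was 631 and 989 CPM in sham replicates 2 and 5, and 175 to 201 CPM in the other sham libraries. The part of the cell types in the results was not tested.

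The difference between the kinds was larger in sham than in WT for a small set of genes. Tested directly, 14 of 14006 genes differed between sham and WT (0.100%), and 1451 did at an unadjusted p under 0.05. In 12 of the 14 the sign was the same in both groups and the size was larger in sham. The kinds themselves stood further apart in sham. The log2 difference of Arntl and Dbp was -6.39 and -5.77 in the WT libraries with Dbp above Arntl and -8.15 to -7.32 in those of sham. The part of this wider distance in the 14 genes was not tested and cannot be told apart from that of the group. Tef was at 113 to 124 against 300 and 319 CPM in WT and at 56.9 and 63.1 against 393 to 408 CPM in sham, so its low level was lower and its high level higher in sham. Its log2 fold change was -1.39 ± 0.07 (SE) in WT and -2.74 ± 0.07 (SE) in sham, a difference of -1.34 ± 0.10 (SE, adjusted p = 4.89e-05). Ciart changed by -3.54 in WT and -5.86 in sham (difference -2.32 ± 0.29, SE, adjusted p = 0.0071), and its low level in sham, 0.308 and 0.376 CPM, lay under that in WT, 1.69 to 2.39 CPM.

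Gpcpd1, a glycerophosphodiesterase of muscle, was at 251, 257 and 262 against 407 and 454 CPM in WT and at 144 and 123 against 451, 460 and 456 CPM in sham (difference of the log2 fold changes -1.03 ± 0.11, SE, adjusted p = 0.0020). Dgat2, which makes triglyceride, was at 327, 342 and 351 against 472 and 550 CPM in WT and at 154 and 146 against 407, 452 and 410 CPM in sham (difference -0.90 ± 0.11, SE, adjusted p = 0.0071). In both genes the low level was lower in sham than in WT and the high levels of the groups lay close. The others with a larger change in sham were Mknk2, Colq, Herpud1, Sqstm1, Sbk1, Nampt, Leo1 and Ckap4. Nampt, the enzyme that sets the rate of NAD salvage, did not pass within WT (log2 fold change -0.18, adjusted p = 0.2230) and did within sham (-0.97, adjusted p = 2.11e-05). The 2 exceptions, Armc2 and Tubb5, had opposite signs in the 2 groups: Armc2 changed by 0.28 in WT and -0.64 in sham, and Tubb5, a tubulin, by -0.15 and 0.50. Mknk2, Sbk1, Leo1, Ckap4, Armc2 and Tubb5 lie outside the rule for naming and were chosen after their values were seen.

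These calls depended on the model. With the share of reads in no annotated gene as a covariate edgeR called 0 genes for a difference between sham and WT (815 at an unadjusted p under 0.05), and with all 18 libraries in the fit it also called 0 (696 at an unadjusted p under 0.05), while DESeq2 on the 10 libraries called 125. With that covariate the adjusted p was 0.0527 for Tef and for Ciart, 0.4017 for Gpcpd1 and 0.5623 for Dgat2. Without sham replicate 2, which with replicate 1 makes up the sham libraries with Arntl above Dbp, 2 genes were called, and Dgat2 and Ciart were at an adjusted p of 0.0955.

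**Figure D5:**
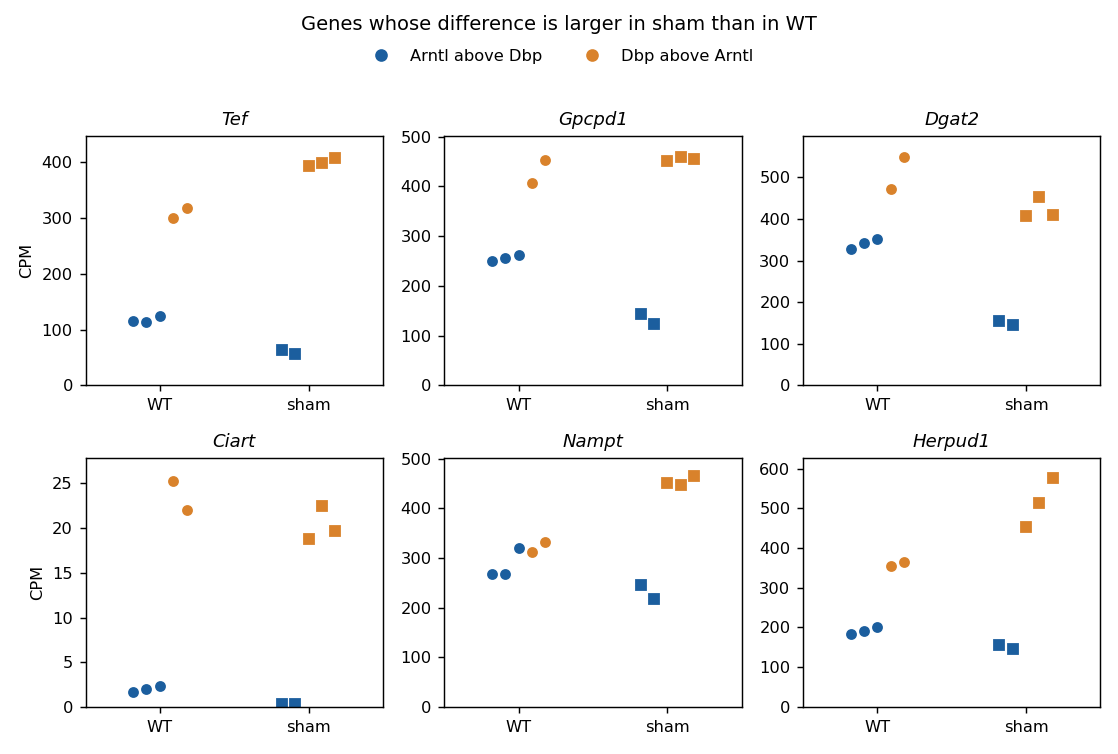
CPM (y axis, from 0) of 6 genes whose difference between the kinds was larger in sham than in WT, in each WT library (circles) and sham library (squares). Blue points have Arntl above Dbp and orange points Dbp above Arntl; for Tef the blue points are at 113 to 124 CPM in WT and at 56.9 and 63.1 CPM in sham.

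The loaded ventricles each showed a single kind of library, so load and kind cannot be told apart there and no test was made. All 3 TAC libraries had Arntl above Dbp, with a log2 difference of 3.08, 2.44 and 2.61 in replicates 1, 2 and 4. The library labelled TAC replicate 2 had Ccnd2 at 232 CPM, near the WT level, which goes against its label. All 5 Shunt libraries had Dbp above Arntl, with -7.2, -2.28, -8.51, -6.4 and -4.45 in replicates 1 to 5. Per2 was at 0.772 to 4.25 CPM in TAC and 5.05 to 46.4 CPM in Shunt, and Nr1d2 at 32.8 to 46 CPM in TAC and 176 to 265 CPM in Shunt. In Nr1d2, TAC thus reached below the unloaded libraries with Arntl above Dbp, which were at 55.2 to 77.1 CPM.

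Shunt replicate 2 lay between the unloaded kinds in several clock genes, with Arntl at 14.4 CPM, Per3 at 16.6 CPM and Tef at 150 CPM. Its Per2, at 5.05 CPM, lay just above the 4.87 CPM that the libraries with Arntl above Dbp reached, and its Ciart, at 1.75 CPM, within their range of 0.308 to 2.39 CPM, while its Nr1d1, at 241 CPM, was the highest of the 18 libraries. Clock was at 81.6 CPM there, near the 82.9 to 95.5 CPM of the unloaded libraries with Arntl above Dbp. Rcan1 was at 412 to 720 CPM in TAC and 62.4 to 96.6 CPM in Shunt, and Eln at 87 to 123 CPM in TAC and 8.11 to 36.1 CPM in Shunt, so these genes, which were higher with Arntl above Dbp in the unloaded ventricle, were higher still in TAC.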

How the data were processed

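Per the labels' protocols, the RNeasy Fibrous Tissue kit of Qiagen gave the RNA, and libraries were built with TruSeq RNA v2 reagents, in which strand is lost. The authors deposited 1 table per library of unnormalised read counts by Ensembl gene. The submitters' processing notes name the aligner STAR 2.3.0e and the counter HTSeq 0.6.1p1, beside CASAVA 1.8.2, SAMtools 0.1.19, FastQC and DESeq2 1.8, and the builds mm10 and GRCm38. Reads of a gene and of an overlapping or antisense gene thus cannot be told apart. The annotation release is not given in the sources used here.

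Gene symbols and positions were taken from GENCODE M21, which named 36602 of 38355 identifiers. Identifiers without a name made up 0.160% or less of the counts in each library. Lines that name no gene were left out of library sizes. Libraries were divided by the sign of log2 CPM (prior count 1) of Arntl minus Dbp. Genes were kept with filterByExpr (minimum count 10, by WT or sham), scaled with TMM and tested with edgeR 4.0.16 in R 4.3.3 (quasi-likelihood F test, robust), with WT or sham and the kind of library as terms on 10 libraries. A model with 4 means gave the differences within WT, within sham and between them. P-values were adjusted by Benjamini-Hochberg over 14008 genes, with a threshold of 0.05, and counts leave out Arntl and Dbp. An SE was obtained by dividing the absolute log2 fold change by the root of its F statistic. CPM values of single libraries were scaled with TMM factors over all 18 libraries. On simulated data of this size, 73% of genes changed 1.5-fold and 90% of those changed 2-fold were called, with 4 of 13703 unchanged genes. The simulation changed 200 of 13903 genes, a smaller share than the 16.2% called in the data. It drew each library independently, with nothing shared by replicate number, so its rates may differ from those of these data.

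The members, gene lists and tests were chosen with earlier results of these data known. The rule named all genes of the 3 clock lists, the 10 largest rises and 10 largest falls among called protein-coding genes (mean log2 CPM 1 or more, no overlap in WT or in sham), up to 4 genes by smallest p of each other list, up to 4 for the difference between sham and WT, and Ccnd2, and the text gives values for most of them. The values of 1 clock gene are not reported here. Alternatives were other scalings and filters, DESeq2 1.42.0, limma 3.58.1 (voom), non-robust estimation, all 18 libraries in the fit, covariates for reads in no gene and for atrial genes, the replicate number as a block, the log2 difference as a number, a division by Npas2 minus Per3, and leaving out libraries. The lowest chi-square per gene between libraries of a group was 7, so no library duplicated another.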

Additional observations from a re-analysis of the deposited data

Results flagged for a closer look

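In 105 groups of 5 libraries examined, 3 held a library far from the others. Chance flags about 1 in 20 groups. Bhlhe40 was at 40.5 CPM in WT replicate 1 and at 81.5 to 104 CPM in the other WT libraries, and Per1 and Per2 were also lowest there among the WT libraries. Shunt replicate 2 had Per2 at 5.05 CPM, against 27.4 to 46.4 CPM in the other Shunt libraries, and Adh1 at 7.46 CPM, against 18.5 to 24.5 CPM.

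For 4 genes the difference between the kinds of library was itself tested as different between sham and WT. The log2 fold change in sham minus that in WT was -1.34 for Tef, -1.03 for Gpcpd1, -0.90 for Dgat2 and -2.32 for Ciart, in each case a larger fall in sham. The replicates of these groups are few, with 2 libraries on a side in each. The parts of the operation, of the transgene and of the wider distance between the kinds in sham cannot be told apart in these differences.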

How the results depend on the processing

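Over the alternatives, 115 of 148 counts of genes stayed within 1.5 times the value reported, and 2315 of 2527 values of the 106 results for single genes kept their direction and their side of the threshold. DESeq2 called 2448 genes for WT and sham together, of which 2197 were among the 2268 reported. With all 18 libraries in the fit, 589 genes were higher and 683 lower, 106 and 146 within WT, 157 and 233 within sham, and 0 differed between sham and WT. The TAC and Shunt libraries enter that fit through the estimate of spread alone. With the share of reads in no annotated gene as a covariate, 38 were higher and 87 lower within WT, 273 and 327 within sham, and 0 differed between sham and WT. The 14 genes that differed between sham and WT became 99 with no low-count filter, 125 with DESeq2 and 55 with atrial genes as a covariate. With single libraries left out, the counts for WT and sham together ran from 705 to 1038 higher and 798 to 1202 lower, within WT from 86 to 584 and 159 to 679, within sham from 211 to 531 and 224 to 704, and for the difference between sham and WT from 2 to 19. In these fits the libraries left on a side were assumed to vary like the others, since the spread was pooled. Of the calls of single genes, 80 ended with the replicate number as a block and 114 over the other alternatives. The causes were not tested.

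Outside the replicate block, the 2 genes whose sign changed had not passed. Arntl2, at -0.01, was at 0.02 with the covariate for reads in no gene, at 0.04 without sham replicates 2 and 5, and between -0.11 and 0.06 with single libraries left out. Rorb, at -0.11, was at 0.13 without sham replicates 2 and 5 and between -0.35 and 0.16 with single libraries left out.

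The replicate number as a block left 3 residual degrees of freedom and called 15 genes higher and 17 lower, of which 22 were among those reported. In that fit the kind of library rests on replicate 3, the number whose WT and sham libraries are of different kinds. Arntl2, Rorb, Cry1, Ier5 and Kdr changed sign there, to log2 fold changes of 0.31, 0.13, 0.18, 0.05 and -0.01. With the means of group and kind removed, deviations of WT and sham libraries of the same number were correlated. The values were 0.0584, 0.0479, 0.0365, 0.106 and 0.0502 for replicates 1 to 5. Since the kinds follow the numbers, removing these means also removes most of what libraries of a number could share. These values therefore cannot decide whether the numbers stand for pairs. The main fit did not take them as pairs. From group means alone the values were 0.239, 0.295, -0.18, 0.304 and 0.214. Only replicate 3 holds both kinds, so the replicate number and the kind of library cannot be told apart in these values. The differences within WT, within sham and between them were not fitted with the block, the log2 difference as a number, the division by Npas2 minus Per3 or sham replicates 2 and 5 left out.

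Genes at a few CPM or less rest on few counts, and their spread between libraries holds much counting error.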
